A study of Rattus norvegicus with 6 samples.

Results

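Intermediate filaments are the class of cytoskeletal filament whose subunits differ from cell type to cell type. The 8 genes described here were chosen by name and matched by symbol to the deposited count table of 25689 genes. All 8 were found, and all 8 passed the filter on low counts, which left 14919 genes tested. Of the 8, 5 encode filaments of neurons (Nefl, Nefm, Nefh, Prph and Ina) and 3 encode filaments usually found in glial, mesenchymal or progenitor cells (Vim, Nes and Gfap).

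The samples were dorsal root ganglion (DRG) neurons of spontaneously hypertensive rats, an inbred model of essential hypertension, and both groups were labelled wild type in genotype. Perirenal adipose tissue, the fat capsule of the kidney, was surgically ablated (PRATA) in the rats of 3 samples, and the rats of the other 3 samples had a sham operation. The age label was 6 to 8 weeks in both groups, while the study's methods give an older age at purchase and collection of the ganglia weeks after surgery. The neurons came from the ganglia at spinal levels L1 and L2 on both sides, which were digested with enzymes and plated, and the neurons were flushed off while glia adhered to the dish. The number of rats behind each sample was not stated, so the p-values below measure the spread between these samples, which may be technical in part. The comparison of PRATA with sham asks how transcripts in neuron preparations from these ganglia differ after the fat around the kidney has been removed. The study reports that these ganglia are among those that send sensory nerves to that fat. Its methods describe no selection of the sequenced neurons by the tissue they project to.

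Neurofilaments are assembled from a light (Nefl), a medium (Nefm) and a heavy (Nefh) subunit, here called the triplet, and they fill the axon of large myelinated sensory neurons and set its calibre. Peripherin (Prph) is the filament protein typical of small, mostly unmyelinated sensory neurons and of neurons regrowing an axon, and alpha-internexin (Ina) is a further subunit that coassembles with the triplet. Vimentin (Vim) is the filament of fibroblasts, endothelial cells and many glia, nestin (Nes) that of progenitor cells and of some glia and vessel cells, and glial fibrillary acidic protein (Gfap) that of astrocytes and of satellite glia and non-myelinating Schwann cells, often after nerve injury.

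The libraries held 5892967 to 15226952 counts, and TMM scaling factors were between 0.953 and 1.10. Sham replicate 2 had both the fewest counts and the highest factor. In the fit across all genes by edgeR's quasi-likelihood test, 0 genes passed an adjusted p of 0.05 (lowest adjusted p 0.156), and 2734 genes had an unadjusted p under 0.05. DESeq2 called 620 genes and limma's voom with sample weights called 1173. PRATA replicate 3 and sham replicate 1 stood apart in the 7SL RNA copy Rn7sl1, which took 5.40% and 5.63% of their counts against 1.25% to 1.52% in the other 4. The 11 pan-neuronal markers were all detected, and markers of glia, fibroblasts, vessels and macrophages were detected as well.

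All 5 neuronal filament genes had a higher fitted level in PRATA than in sham, and Vim and Nes had a lower one. Gfap did not share the sign of Vim and Nes (log2 fold change 0.17, SE 0.67). None of the 8 passed the adjusted threshold. At an unadjusted p under 0.05, 1 member was higher (Prph) against 8.19% of all genes tested, and 1 was lower (Vim) against 10.1%. The median log2 fold change was 0.64 over the 5 neuronal members, -0.83 over the 3 glial or mesenchymal members and 0.02 over all genes tested. In all the plots and values below, levels are CPM, the reads of a gene relative to all reads of its sample, after TMM scaling. They compare samples within a gene, not genes with each other, since they are not divided by transcript length.

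**Figure D1:**
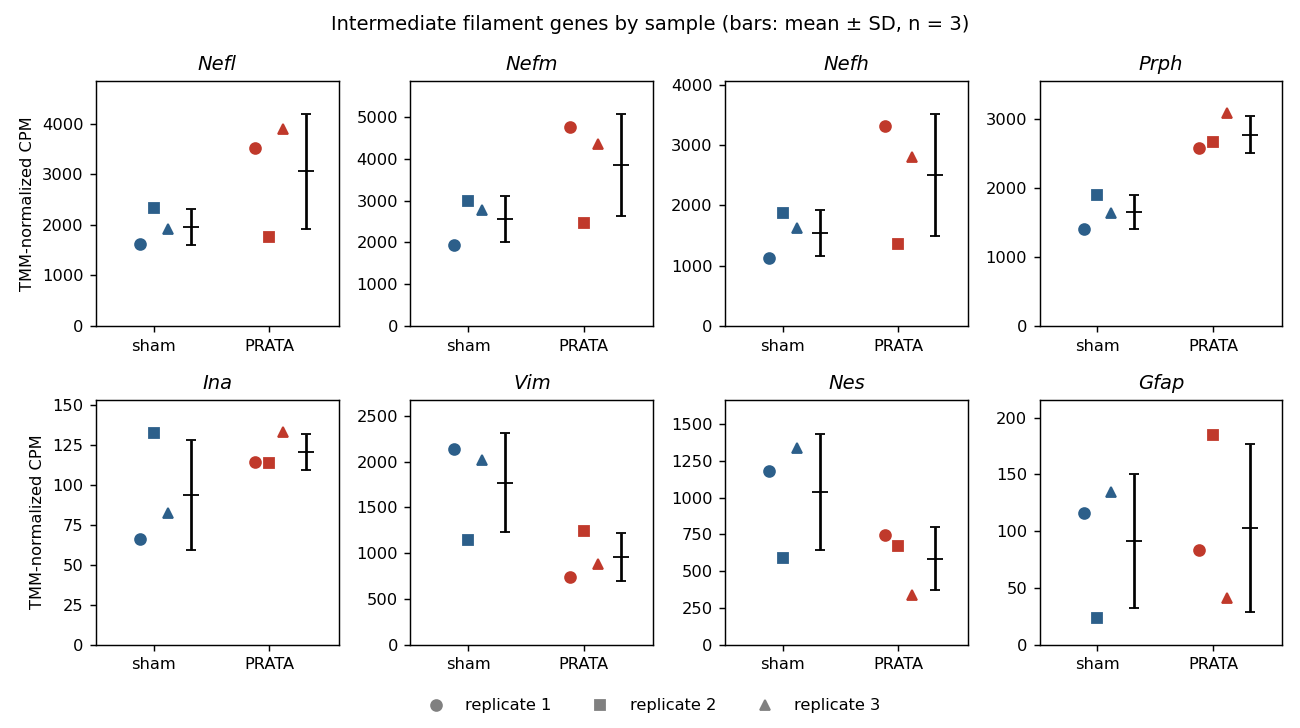
TMM-normalized CPM of the 8 intermediate filament genes in the 3 sham (blue) and 3 PRATA (red) samples, 1 panel per gene with its own axis from 0, with bars for the mean ± SD. The groups do not overlap for Prph alone, and PRATA replicate 2 lies among the sham samples for Nefl, Nefm and Nefh.

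The light chain Nefl (ENSRNOG00000013658), the core subunit on which the others build, was at 3512, 1766 and 3894 CPM in PRATA replicates 1 to 3 and at 1622, 2341 and 1917 CPM in sham replicates 1 to 3. PRATA replicates 1 and 3 were above every sham sample and PRATA replicate 2 lay within the sham range. The means were 3058 ± 1134 in PRATA and 1960 ± 362 CPM in sham (SD, n = 3 each). The log2 fold change was 0.64 (SE 0.33, 95% confidence interval -0.12 to 1.40), with an edgeR adjusted p of 0.332.

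The medium chain Nefm (ENSRNOG00000013916), which carries 1 of the long phosphorylated tails that space filaments apart, was at 4758, 2474 and 4355 CPM in PRATA and at 1951, 2994 and 2766 CPM in sham. Again 2 PRATA samples were above all of sham and replicate 2 was not. Its log2 fold change was 0.59 (SE 0.31, 95% confidence interval -0.13 to 1.3, edgeR adjusted p = 0.346), from 3862 ± 1219 CPM in PRATA and 2570.5 ± 549 CPM in sham (SD, n = 3 each).

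The heavy chain Nefh (ENSRNOG00000008716), a marker of mature large-diameter neurons, was at 3315, 1366 and 2803 CPM in PRATA and at 1119, 1878 and 1618 CPM in sham. The groups overlapped by the same PRATA replicate 2. The log2 fold change was 0.70 (SE 0.36, 95% confidence interval -0.14 to 1.53, edgeR adjusted p = 0.337), with means of 2494 ± 1010.5 and 1539 ± 386 CPM (SD, n = 3 each). For each of the 3 chains an exact two-sided permutation test of the CPM gave p = 0.3, where 0.1 is the smallest that 3 against 3 samples allow.

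The 3 chains kept nearly the same proportions in every sample. Nefl took 30.3% to 35.2% of the triplet's counts in PRATA and 30.4% to 34.6% in sham. Nefm took 39.4% to 44.1% in PRATA and 41.5% to 43.9% in sham, and Nefh 24.4% to 28.6% and 23.9% to 26.0%. These shares are of reads, so they do not give the ratio of the proteins. The difference between PRATA and sham in log2 CPM was -0.02 for Nefm minus Nefl, 0.06 for Nefh minus Nefl and 0.08 for Nefh minus Nefm, and the groups overlapped in each. Over the 6 samples, Pearson's r of log2 CPM was 0.996 between Nefm and Nefh, 0.967 between Nefl and Nefh and 0.966 between Nefl and Nefm, given as a description of values that share the same libraries. In the rat annotation GRCr8, Nefl and Nefm are adjacent protein-coding genes, lying between Dock5 and Adam7.

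Prph (ENSRNOG00000052880) was the member whose groups did not overlap. It stood at 2581, 2665 and 3091 CPM in PRATA and at 1407, 1901 and 1646 CPM in sham. The lowest PRATA sample was above the highest sham sample, as it was for 11.6% of all genes tested (11.2% had the reverse order). The means of 2779 ± 273 and 1651 ± 247 CPM (SD, n = 3 each) gave a 1.68-fold higher fitted level, a log2 fold change of 0.75 (SE 0.22, 95% confidence interval 0.24 to 1.26). The edgeR p was 0.00968 and the adjusted p 0.176, and the exact permutation p was 0.1, the smallest this design allows. DESeq2 called Prph higher (adjusted p = 0.0155), among 1.22% of the genes it tested, and voom with sample weights did too (adjusted p = 0.0408), among 3% of genes. Over the 16 alternatives the log2 fold change was 0.56 to 0.87 and the adjusted p 0.0155 to 0.550.

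Ina (ENSRNOG00000020248), at 114.5, 113.9 and 133.4 CPM in PRATA and 66.4, 132.7 and 82.3 CPM in sham, had 1 sham sample, replicate 2, that lay with the PRATA samples. Its log2 fold change was 0.37 (SE 0.26, 95% confidence interval -0.23 to 0.96, edgeR adjusted p = 0.474). The value was 0.70 without sham replicate 2, 0.15 without sham replicate 1 and 0.09 among the 4 samples with the lower Rn7sl1 share. In GRCr8 the Ina gene overlaps Nt5c2 and Nefm overlaps the locus LOC134482139. Whether reads were counted by strand was not given in the sources used here, so reads of these neighbours may be among their counts.

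Vim (ENSRNOG00000018087) was at 739.5, 1246 and 876 CPM in PRATA and at 2144, 1149 and 2020.2 CPM in sham. Sham replicates 1 and 3 were far above the PRATA samples, and sham replicate 2 lay among them. The means were 954 ± 262 and 1771 ± 542 CPM (SD, n = 3 each), and the log2 fold change was -0.89 (SE 0.32, 95% confidence interval -1.62 to -0.17). The edgeR p was 0.0219 and the adjusted p 0.216, and the exact permutation p was 0.2. Voom with sample weights called it lower (-1.11, adjusted p = 0.0421), among 4.87% of genes. The 16 alternatives ran from -1.13 to -0.69, with adjusted p-values from 0.0421 to 0.571.

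Nes (ENSRNOG00000018681) was at 744, 672 and 339 CPM in PRATA and at 1183, 589 and 1341 CPM in sham, the same order of groups as Vim with sham replicate 2 again inside the PRATA range. The log2 fold change was -0.83 (SE 0.39, 95% confidence interval -1.73 to 0.07, edgeR adjusted p = 0.303), from means of 585 ± 216 and 1038 ± 397 CPM (SD, n = 3 each).

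Gfap (ENSRNOG00000002919), the glial filament most tied to reactive glia, was at 83.4, 185 and 40.8 CPM in PRATA and at 116, 23.4 and 134 CPM in sham. It was the most variable member, with a 7.90-fold spread between the lowest and highest sample against 2.01- to 3.96-fold for the other 7. Its lowest value rested on 150 counts, so counting error was small beside that spread. The log2 fold change was 0.17 (SE 0.67, 95% confidence interval -1.38 to 1.72, edgeR adjusted p = 0.915). Its sign was negative without PRATA replicate 2 (-0.56), without sham replicate 2 (-0.28) and with voom (-0.22), so these samples give Gfap no direction.

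**Figure D2:**
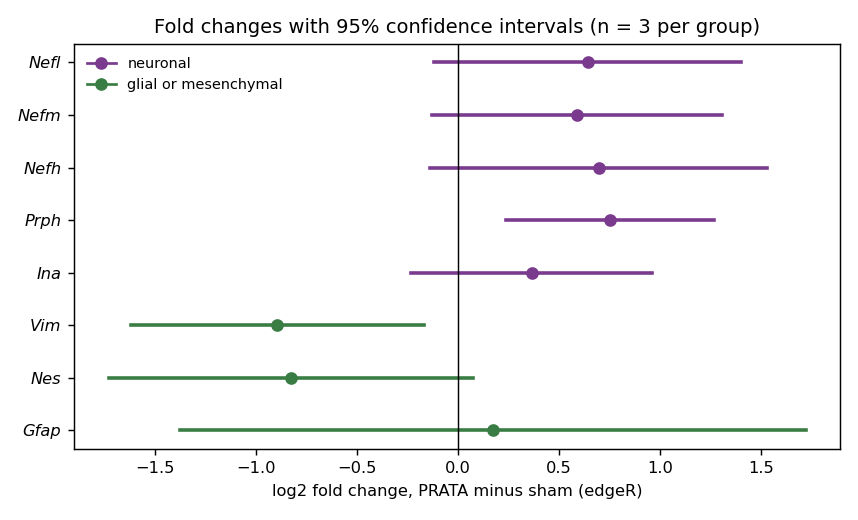
Log2 fold changes, PRATA minus sham, of the 8 genes from the edgeR fit, with bars for 95% confidence intervals unadjusted for the number of genes (n = 3 per group) and colour for neuronal against glial or mesenchymal filaments. The intervals of Prph and Vim leave out 0, that of Gfap spans -1.38 to 1.72.

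The promoters of Prph and Vim are shown here because they were the members with the lowest p in each direction. Each run is 300 bases of the RefSeq promoter table for GRCr8, from 250 bases before the transcription start to 50 after, on the plus strand: chr7:132097039-132097338 for Prph and chr17:81577011-81577310 for Vim. Capitals mark matches, on either strand, to the letters of the CCAAT box, to those of the GC box (GGGCGG) and to those of the TATA box (TATAAA).
Prph: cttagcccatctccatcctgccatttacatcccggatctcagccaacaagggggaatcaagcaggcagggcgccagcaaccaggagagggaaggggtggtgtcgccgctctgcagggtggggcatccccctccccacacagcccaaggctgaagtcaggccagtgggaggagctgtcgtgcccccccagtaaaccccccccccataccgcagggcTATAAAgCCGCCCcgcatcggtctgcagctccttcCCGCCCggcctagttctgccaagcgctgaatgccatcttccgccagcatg
Vim: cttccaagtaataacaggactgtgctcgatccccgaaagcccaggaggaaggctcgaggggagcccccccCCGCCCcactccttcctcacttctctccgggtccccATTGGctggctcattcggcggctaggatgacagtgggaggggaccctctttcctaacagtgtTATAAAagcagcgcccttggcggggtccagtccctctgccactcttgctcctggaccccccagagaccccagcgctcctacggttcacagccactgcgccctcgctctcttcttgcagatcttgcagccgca
In both windows letters matching the TATA box lay ahead of the start, 35 bases before it in Prph and 82 in Vim. Whether either match acts as a TATA box was not tested. Of the 5 members with a listed promoter, 2 held these letters, and 14.2% of the 33469 rat promoters listed by RefSeq did. A GC box was found in 4 of the 5 members that the table holds (Ina, Nes, Prph, Gfap and Vim) and in 33.1% of all promoters. Vim alone of the 5 held a CCAAT box, found in 37.5% of all promoters, and none of the 5 held the AP-1 letters (TGACTCA), found in 4.63%. An E-box (CAGCTG) was in 1 of the 5 and in 15.1% of all, and a cyclic AMP response element (TGACGTCA) in 0 of the 5 and in 1.83% of all. These matches are letters in a window, and no factor was measured here.

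The members split by sample into opposing levels. The 5 neuronal filaments together took 1.36%, 0.862% and 1.40% of all counts in PRATA and 0.586%, 1.01% and 0.795% in sham. The 3 glial or mesenchymal filaments took 0.149%, 0.216% and 0.123% in PRATA and 0.327%, 0.191% and 0.346% in sham. There were thus 9.12, 3.99 and 11.4 neuronal filament counts for each glial or mesenchymal one in PRATA, and 1.79, 5.25 and 2.30 in sham. PRATA replicate 2 and sham replicate 2 were the samples that crossed. As a difference of mean log2 CPM, the neuronal minus the glial or mesenchymal level was 2.29, 1.07 and 2.98 in PRATA and 0.27, 2.34 and 0.53 in sham, with means of 2.11 ± 0.97 and 1.05 ± 1.13 (SD, n = 3 each). The groups overlapped, and their difference of 1.07 was about the size of the pooled SD within groups, 1.05.

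**Figure D3:**
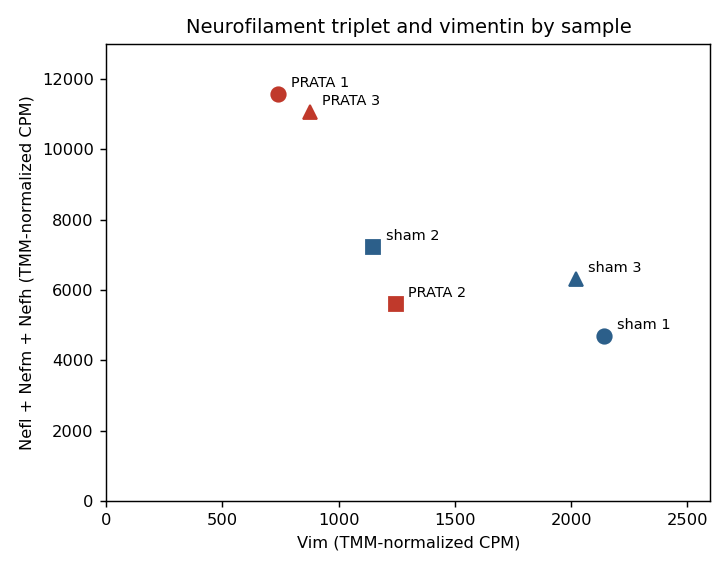
Summed TMM-normalized CPM of Nefl, Nefm and Nefh (vertical) against TMM-normalized CPM of Vim (horizontal), 1 point per sample, both axes from 0. PRATA replicates 1 and 3 lie at the top left (11584 and 11052 against 739.5 and 876 CPM), sham replicates 1 and 3 at the right, and the replicates numbered 2 of both groups lie between them.

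Cell type markers were read beside these levels, and none passed the adjusted threshold. The 11 pan-neuronal markers were all higher in fitted level in PRATA, 3 of them at an unadjusted p under 0.05 (8.19% of all genes were higher at that p). The groups did not overlap in 4 of the 11, against 11.6% of all genes tested. Their summed level was 5083 to 5800 CPM in PRATA and 2975 to 4786 CPM in sham, led by Tubb3 and Stmn2. The closest sums were those of PRATA replicate 2 and sham replicate 2. Tubb3 alone was at 1729 and 1127 CPM in these samples, a wider gap than that between their sums. The 8 satellite glial markers were all lower in fitted level, 1 of them at an unadjusted p under 0.05 (10.1% of all genes were lower at that p), and their sums overlapped, at 3238 to 6207 CPM in PRATA and 4363 to 8598 CPM in sham. Without PRATA replicate 2 the counts of these 2 lists at an unadjusted p under 0.05 were 5 and 5. Without sham replicate 2 they were 8 and 3, and without any other sample they were 3 to 4 and 1. The shares of all genes at that p, in either direction, were 15.4%, 27.6% and 8.91% to 15.4%, against 18.3% in all samples. None of the markers in any list was at 0 in all samples. In these bulk samples, fewer cells of a type and less RNA per cell cannot be told apart.

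Set against the pan-neuronal markers, the differences in the triplet shrank. Nefl minus the markers' mean log2 CPM was 3.67, 3.0 and 3.92 in PRATA and 3.50, 3.43 and 3.46 in sham, a difference in means of 0.06. The corresponding difference was 0.04 for Nefm, 0.12 for Nefh, 0.24 for Prph and -0.09 for Ina. For each of these 5 genes the groups overlapped, Prph included, at 3.23, 3.59 and 3.59 in PRATA and 3.30, 3.13 and 3.24 in sham. The sham samples agreed closely in Nefl relative to neuronal markers, and the PRATA samples spread on both sides of them.

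The differences in Vim and Nes were likewise smaller relative to the satellite glial markers, whereas that in Gfap was larger. Vim minus those markers' mean was 3.11, 2.96 and 3.63 in PRATA and 3.39, 3.47 and 3.46 in sham, a difference of -0.21, and Nes differed by -0.15. Gfap relative to the same markers was -0.04, 0.20 and -0.79 in PRATA and -0.82, -2.14 and -0.45 in sham, a difference of 0.93. The groups overlapped for all 3 genes. Vim minus Nes differed by -0.05 and Prph minus the triplet mean by 0.17, again with overlap.

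**Figure D4:**
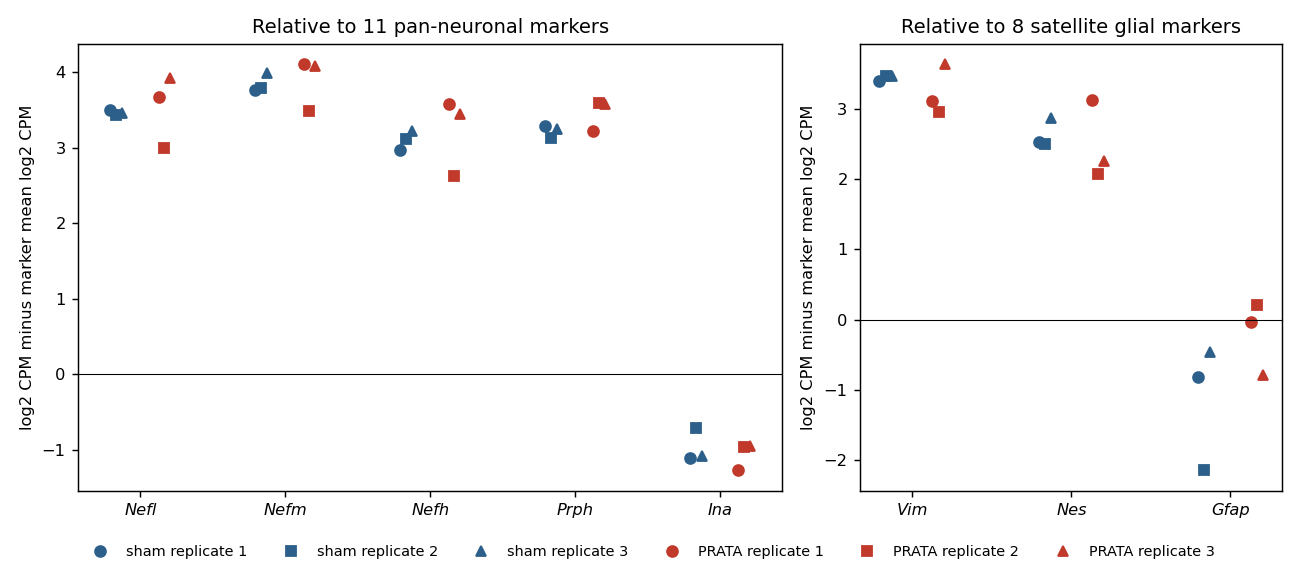
Log2 CPM of each neuronal filament minus the mean log2 CPM of 11 pan-neuronal markers (left) and of Vim, Nes and Gfap minus the mean of 8 satellite glial markers (right), 1 point per sample. Sham (blue) and PRATA (red) overlap for every gene, with differences in means of -0.09 to 0.24 on the left and -0.21 to 0.93 on the right.

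Markers of the other cell types that can express these filaments had fitted differences of both signs. The Schwann cell list had 9 of 10 members higher and a median log2 fold change of 0.78, with summed levels of 923 to 1625 CPM in PRATA and 739 to 959 CPM in sham. The fibroblast list had 6 of 7 tested markers lower and a median of -0.52, with 484 to 2534 CPM in PRATA and 1377 to 2522 CPM in sham (Col1a1 and Fn1). These medians depended on single samples: the Schwann cell median was 0.38 without PRATA replicate 2, and the fibroblast median was -0.18 without PRATA replicate 1, -0.25 without sham replicate 1 and -1.26 without PRATA replicate 3. The fibroblast sums were highest in PRATA replicate 3 and sham replicate 1 (2534 and 2522 CPM), the samples with the higher Rn7sl1 share. Among the 4 samples with the lower share, the Schwann cell median was 1.08 and the fibroblast median -1.04. The pan-neuronal and satellite glial medians were 0.32 and -0.30 there, against 0.44 and -0.60 in all samples. Endothelial markers (Cdh5 and Kdr) summed to 53.3 to 117 CPM in PRATA and 21.3 to 128 in sham, smooth muscle and pericyte markers (Myh11 and Pdgfrb) to 150 to 188 and 94.6 to 228, and macrophage and leukocyte markers (Lyz2 and Cd74) to 78.0 to 292 and 69.1 to 167. Of the members tested in these 3 lists, 5 of 6, 4 of 6 and 7 of 8 were higher in fitted level. Markers of large-diameter neurons, where the triplet is highest, had 8 of 10 higher with a median of 0.53, and markers of small-diameter neurons, where Prph is typical, had 10 of 10 higher with a median of 0.42. The 2 lower large-diameter markers were Ntrk2 (log2 fold change -1.04, edgeR adjusted p = 0.175) and Spp1 (-0.60, adjusted p = 0.493). The groups did not overlap for Ntrk2, as for 11.2% of all genes with PRATA below sham. These 2 genes had the highest levels of that list and so weighed most in its sum. Ntrk2 was at 207, 346 and 205 CPM in PRATA and 565, 357 and 635 CPM in sham. Like the satellite glial sum, it was lowest in PRATA replicates 1 and 3 and highest in sham replicates 1 and 3. Whether reads of these 2 genes came from neurons was not tested, so the list's sum is not read as a neuronal level. The list's median was 0.31 without PRATA replicate 1. The summed levels of both neuronal lists overlapped between groups, at 1018 to 1486 and 1133 to 2341 CPM for the large-diameter list (Spp1 and Ntrk2) and 3113 to 4559 and 2288 to 3807 CPM for the small-diameter list (Scn10a and Scn11a). The part of any of these cell types in the members' differences was not tested.

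Other genes of the intermediate filament family were mostly low or absent. Of 31 listed, 29 were in the table and 13 passed the filter, 8 of them higher and 5 lower with a median log2 fold change of 0.44. The 16 that did not pass, keratins and the lens filament gene Bfsp2, reached at most 43 counts in any sample (Krt19 in PRATA replicate 2). At an unadjusted p under 0.05, 3 of the 13 were higher and 0 lower, against 8.19% and 10.1% of all genes. Syncoilin (Sync), which binds desmin and peripherin, was at 58.9, 45.5 and 53.0 CPM in PRATA and 36.1, 26.8 and 28.3 CPM in sham, with a log2 fold change of 0.78 (SE 0.19, edgeR adjusted p = 0.158). Iffo1, a filament protein of the nucleus, was at 52.9 ± 2.92 against 33.5 ± 2.57 CPM (SD, n = 3 each; log2 fold change 0.66, edgeR adjusted p = 0.156). Krt7, a keratin of simple epithelia, was at 21.0 ± 0.834 against 13.3 ± 4.08 CPM (0.66, adjusted p = 0.227), and the groups did not overlap for any of these 3 genes, as for 11.6% of all genes with PRATA above sham. Synemin (Synm), which coassembles with vimentin, was at 1072 ± 160 against 773 ± 169 CPM (0.47, edgeR adjusted p = 0.329) and so did not share the sign of Vim.

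The plakins, large linkers between intermediate filaments, microtubules and membranes, gave no member under an unadjusted p of 0.05 among the 6 tested. Macf1, which joins actin to microtubules, was at 462, 549 and 444 CPM in PRATA and 357, 408 and 264 CPM in sham, groups that did not overlap, again as for 11.6% of all genes (log2 fold change 0.50, edgeR adjusted p = 0.282). Dst, the plakin lost in sensory neuropathy, was at 0.23, Dsp at 0.13 and Plec at 0.04 on the log2 scale. The signs of Dsp and Plec turned with single samples left out.

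Genes for the turnover of filaments and small heat shock proteins were higher in 8 of 9, with a median of 0.33 and 3 of the 9 at an unadjusted p under 0.05 (8.19% of all genes were higher at that p). Trim2, a ubiquitin ligase that binds the light neurofilament chain, was at 236, 212 and 191 CPM in PRATA and 137, 162 and 118 CPM in sham, again without overlap, as for 11.6% of all genes (log2 fold change 0.62, SE 0.19, edgeR adjusted p = 0.180). The cochaperone Bag3 (0.68, edgeR adjusted p = 0.222) and the protease subunit Capn1, a calpain that cleaves neurofilaments (0.60, adjusted p = 0.225), were the other 2. Cryab, a small heat shock protein that chaperones Gfap and vimentin, was the exception at 378, 298 and 159 CPM in PRATA and 817, 270 and 446 CPM in sham (-0.88, SE 0.45, edgeR adjusted p = 0.329). Its value was -0.38 without sham replicate 1 and -0.10 among the 4 samples with the lower Rn7sl1 share.

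Of 10 kinases and regulators that act on the neurofilament tails, 9 were higher, with a median of 0.28 and 2 at an unadjusted p under 0.05, against 8.19% of all genes. Both were activators of the kinase Cdk5. Cdk5r2 was at 45.1, 41.5 and 52.7 CPM in PRATA and 26.9, 35.3 and 31.2 CPM in sham (log2 fold change 0.58, SE 0.18, edgeR adjusted p = 0.188). Cdk5r1 was at 15.5 ± 0.763 against 11.1 ± 0.809 CPM (SD, n = 3 each; 0.48, edgeR adjusted p = 0.237). Cdk5 itself was at 0.53 (edgeR adjusted p = 0.301) and Mapk8 at 0.28 (adjusted p = 0.419). None of the genes of these 4 lists passed the adjusted threshold of the edgeR fit, and the counts depended on single samples. Without sham replicate 2, 5 of the other filament genes, 2 of the plakins, 3 of the turnover genes and 4 of the kinases and regulators were higher at an unadjusted p under 0.05. Of all genes, 27.6% reached that p in either direction without this sample, against 18.3% in all samples. The other filament genes gave 2 when any 1 of the 3 PRATA replicates or sham replicate 3 was left out, against 3 in all samples. The turnover genes gave 0 without PRATA replicate 1, 2 without PRATA replicate 2 and 1 without sham replicate 3. The kinases and regulators gave 0 without PRATA replicate 3, and 1 without PRATA replicate 1, sham replicate 1 or sham replicate 3. With any sample other than sham replicate 2 left out, 8.91% to 15.4% of all genes reached that p in either direction.

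Among 8921 protein-coding genes with a mean of at least 10 CPM, those whose log2 CPM over the 6 samples was most like the mean of the triplet were Slc38a1, Abhd2, Ckmt1, Clmp and Cnnm1, with Pearson's r of 0.992, 0.991, 0.990, 0.989 and 0.989. Those most like Vim were Epas1, Ppfibp1, Lats2, Sash1 and Reep3, at 0.998, 0.998, 0.995, 0.995 and 0.995. They are the extremes of a ranking of all those genes over 6 libraries. Within the members, r was -0.88 to -0.87 between the triplet chains and Vim, 0.68 to 0.73 between the chains and Prph, 0.77 between Vim and Nes, 0.62 between Nes and Gfap and 0.46 between Vim and Gfap. All these values share libraries and depth.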

How the data were processed

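RNA was sequenced from 3 PRATA and 3 sham samples. The study's methods describe a stranded total RNA kit from a few nanograms of RNA with depletion of ribosomal RNA, read in pairs on a NovaSeq, aligned with HISAT2 and assembled with StringTie; the submitters' processing notes name STAR 2.7.3a, RSEM and DESeq2. The authors deposited raw counts per Ensembl rat gene; which of these pipelines made them, the strand setting, genome build and annotation release are not given in the sources used here. Levels were therefore read within a gene.

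Groups came from the treatment labels. Genes were filtered with filterByExpr (minimum count 10, minimum total 15), scaled by TMM and tested with the two-sided quasi-likelihood test of edgeR 4.0.16 (R 4.3.3). The 14919 p-values were adjusted together by the Benjamini-Hochberg method. CPM was computed with the TMM-scaled library sizes, and log2 CPM used a prior count of 1. A count of 3, taken as the floor, corresponds to 0.207 to 0.468 CPM; such limits cover counting error only. No 2 samples agreed within sampling noise. Scripts were tested on simulated data. Alternatives were 2 other scalings, 2 other filters, a robust fit, protein-coding genes alone, DESeq2 1.42.0, limma 3.58.1 (voom with sample weights), a replicate block, each sample left out and the 4 samples with the lower Rn7sl1 share.

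The members and gene lists were chosen with earlier results of these data known. Named were all members, up to 4 genes with the smallest p of each list, the 2 markers of highest mean CPM of each marker list (some are not reported here), and the 5 genes most like the triplet and most like Vim. Levels relative to satellite glial markers, Vim minus Nes, Prph minus the triplet and the list counts without single samples and the share of all genes under each alternative were added after the data were seen. Promoters were matched by symbol for 5 of the 8 members.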

Additional observations from a re-analysis of the deposited data

How the results depend on the processing

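The 5 neuronal members, Vim, Nes and the neuronal minus glial or mesenchymal level kept their sign under every alternative run (the level difference ran from 0.24 among the 4 samples with the lower Rn7sl1 share to 1.71 without sham replicate 2). The size depended on single samples. The number of members at an unadjusted p under 0.05, 2 in the main analysis, was 4 with no filter on low counts, 5 with DESeq2, 7 with voom and 0 in the 4 samples, where 13.5%, 18.5%, 30.9% and 12.9% of all genes reached that p (18.3% in the main analysis). Leaving out 1 sample gave 1 to 5 members: 5 without PRATA replicate 2 (Nefl, Nefm, Nefh, Prph and Vim), 4 without sham replicate 2 (Prph, Ina, Vim and Nes), and 1, Prph, when any of the other 4 was left out, against 15.4%, 27.6% and 8.91% to 15.4% of all genes. The number of genes at an adjusted p under 0.05 was 620 with DESeq2, 1173 with voom, 13 in the 4 samples, and 0 to 721 with 1 sample left out (721 without sham replicate 2, the library with the fewest counts). Nefl and Nefh were at 0.92 and 0.99 without PRATA replicate 2, Nefm and Nefh at 0.38 and 0.41 without PRATA replicate 1, and Nes at -0.55 without PRATA replicate 3. In the 4 samples Nefl, Nefm, Nefh and Nes were at 0.30, 0.32, 0.41 and -0.46. Gfap was at -0.22 with voom and at -0.56 to 0.56 with 1 sample left out, Plec at -0.047 with voom and at -0.13 to 0.19, and Dsp at -0.19 in the 4 samples and at -0.065 to 0.57. Their causes were not tested.

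Same-numbered samples of the 2 groups did not deviate together (correlations of -0.35, -0.04 and -0.35). These values gave no sign of a pairing by number, but with 3 samples a group they cannot exclude one. With the replicate block, 0 members had an unadjusted p under 0.05 (10.2% of all genes did), Prph was at 0.76 (adjusted p = 0.489) and Vim at -0.88 (adjusted p = 0.502). With 3 samples a group the precision was limited by the spread between samples, which for the members was larger than counting error.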
